A study of Mus musculus with 5 samples.

Results

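The kinesin genes are the 43 of 31053 genes in the deposited matrices whose symbol starts with Kif and a digit, together with Kifc1, Kifc2 and Kifc3. Of these, 38 had at least 1 unique molecular identifier (UMI, a counted RNA molecule) in hepatocytes of at least 1 library. Kif1a, Kif2b, Kif6, Kif7 and Kif28 had none. Not every symbol that meets the rule is a motor: Kif1bp encodes a protein that binds kinesins, and Kif16bos is an RNA antisense to Kif16b. The rule leaves out Cenpe, a kinesin of the kinetochore, and Kifc5b, a near-identical copy of Kifc1.

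C57BL/6J mouse livers were dissociated and profiled by 10x v3 droplet sequencing, with 1 library per group. The groups were mice of postnatal day 14 without surgery (P14), an adult control, and adults taken 24, 48 or 96 h after partial hepatectomy (PHx), in which part of the liver is cut away and the remainder regrows. The operated adults were 8 weeks old at surgery. No group carries a transgene or a drug in the labels, and every cell suspension came from a perfused liver and had passed a kit that removes dead cells. The protocol text counts the adult control among the operated mice, whereas its title, source and treatment labels do not, and it was used as the control here. Its description carries another lane code than the other libraries, so lane and control cannot be told apart. Sex and the number of mice per library are not given in the sources used here. With 1 library per group no difference between groups has a replicate check and no p-value is given. Every interval below is a 95% interval that covers counting error only.

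Hepatocytes were barcodes of at least 5000 UMIs with 10 to 30% mitochondrial UMIs and at least 1% of UMIs from Alb, Apoa1 and Ttr. P14 held 2106 of them, the control 925, and the libraries of 24, 48 and 96 h 1170, 719 and 771. Their median depth ran from 18527 UMIs in the control to 38922.5 in P14, and 7 of 8 listed hepatocyte markers were detected in each library. Levels are CPM, the UMIs of a gene summed over hepatocytes and scaled to a common library total, in which the 13 mitochondrial genes are not counted. CPM of a 3' method are not per length, so the level of a gene is compared between libraries and cells. Where several genes are set beside each other, only their counted UMIs are. At most 2 hepatocyte barcodes were shared by a pair of libraries. Free RNA of empty droplets was expected to supply from 0.522% (48 h) to 8.19% (control) of the mitotic kinesin UMIs.

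Kinesins are motors that use ATP to move along microtubules or, in a few families, to take microtubule ends apart. One set builds the mitotic spindle, positions chromosomes and completes cytokinesis, and is made mainly by dividing cells. Another set carries mitochondria, lysosomes, endosomes and vesicles in cells at rest. Hepatocytes of the adult liver are mostly quiescent and re-enter the cell cycle after PHx, and many become polyploid when cytokinesis fails.

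The promoters are shown first because the kinesins that follow mitosis and those expressed at rest, both defined below, differed in a short element there. Windows reached from 250 bases before to 50 bases after the gene start in RefSeq build GRCm38.p6, and 34 of the 43 genes were matched. The cell cycle homology region, an element known from genes of mitosis (CHR, searched as TTTGAA or TTTAAA on both strands), was present in 10 of the 11 matched kinesins that followed mitosis. It was present in 0 of the 8 matched kinesins expressed at rest and in 30.6% of all 27025 genes of the table. Beyond these sets only Kif1a, Kif26b and Kif27 had one among the matched kinesins. A CCAAT box (CCAAT, both strands) was present in 7 of the 11, in 3 of the 8 and in 41.1% of all genes. Both elements together were present in 7 of the 11, in 0 of the 8 and in 12.2% of all genes. An E2F element (TTTNNCGC, both strands) was present in 2 of the 11, Kif15 and Kif18a, in 0 of the 8 and in 5.93% of all genes. In Kif15 the E2F match ends next to the CHR and does not overlap it. These are matches of letters, not bound sites. The sequences are the 100 bases before the start of 4 mitotic kinesins with a CHR near the start, and of Kif1b, a kinesin expressed at rest with a CCAAT box and no CHR, 5′ to 3′ on the strand of the gene. Capitals mark the CHR and the CCAAT box on either strand.
Kif11, chr19:37376282-37376381, plus strand: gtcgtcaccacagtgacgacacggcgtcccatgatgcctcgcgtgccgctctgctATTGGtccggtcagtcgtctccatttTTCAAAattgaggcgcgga
Kif14, chr1:136467748-136467847, plus strand: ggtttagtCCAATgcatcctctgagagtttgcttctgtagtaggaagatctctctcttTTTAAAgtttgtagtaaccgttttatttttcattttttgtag
Kif15, chr9:122950981-122951080, plus strand: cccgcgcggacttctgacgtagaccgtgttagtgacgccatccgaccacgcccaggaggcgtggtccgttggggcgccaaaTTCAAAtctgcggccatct
Kif22, chr7:127042421-127042520, minus strand: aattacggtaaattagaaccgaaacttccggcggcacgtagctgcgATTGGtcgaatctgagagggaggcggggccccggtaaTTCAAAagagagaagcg
Kif1b, chr4:149307734-149307833, minus strand: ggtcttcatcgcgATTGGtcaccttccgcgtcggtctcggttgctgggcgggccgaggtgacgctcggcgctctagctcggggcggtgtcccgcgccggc
The first base of the CHR nearest the start lay at -19 in Kif11 and Kif15, -17 in Kif22 and -42 in Kif14, counted back from the gene start. The CCAAT box lay at -45, -54 and -92 in Kif11, Kif22 and Kif14, and Kif15 had none in its window. Of the 11 matched mitotic kinesins, Kif18a was the one without a CHR.

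Kinesins that follow mitosis were separated within each library, by cells rather than by groups. A hepatocyte was mitosis-positive when at least 3 of 18 mitosis markers, none of them a kinesin of this rule, had a UMI after each cell was thinned to 5000 UMIs. It was mitosis-negative when 0 of these markers and at most 1 of 17 replication genes had one. A kinesin followed mitosis when its CPM was at least 4-fold higher in positive cells and both sets together held at least 10 of its UMIs. At 48 h, with 273 positive and 222 negative hepatocytes, this held for 12 of the 26 kinesins with enough UMIs, against 4.02% of all genes counted the same way. They were Kif2c, Kif4, Kif11, Kif14, Kif15, Kif18a, Kif18b, Kif20a, Kif20b, Kif22, Kif23 and Kifc1, the same 12 that were listed as mitotic from textbook knowledge. None of the 26 was at least 4-fold lower in positive cells. The median ratio of the 12 was 49.9, that of the 9 counted transport kinesins 1.11, and that of all genes 1.17. Positive cells were deeper (median 41660 against 32181 UMIs), and CPM scales only for the total. With each cell thinned to 5000 UMIs, 76.2% of positive and 2.70% of negative cells held a UMI of any mitotic kinesin. Other differences between the sets that may come with depth were not tested.

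The size of the contrast differed among the 12. Kif20a was at 71.9 CPM in positive and 0.533 CPM in negative hepatocytes of the 48 h library, 135-fold (45.99 to 656). Kif11 was at 69.8 and 1.24 CPM, 56.2-fold (27.1 to 140.2). Kif22 had the smallest ratio, 10.3-fold (6.12 to 18.7), with 27.4 and 2.66 CPM. Kif14 had 0 UMIs in negative cells and was at least 18.001-fold higher in positive ones against a floor of 3 counts. The other 8 lay between 15.9-fold (Kif18a) and 73.3-fold (Kif2c).

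**Figure D1:**
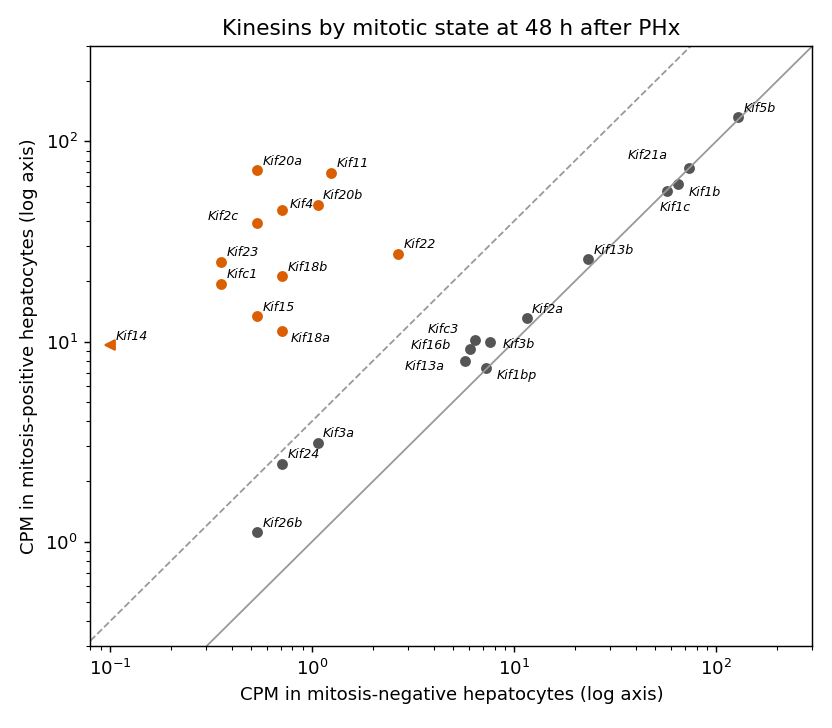
CPM of each kinesin in mitosis-negative (x axis) and mitosis-positive (y axis) hepatocytes of the 48 h library, both log axes. The solid line marks equal levels and the dashed line a 4-fold higher level in positive cells. Orange points are the 12 kinesins that followed mitosis, and the left-pointing triangle is Kif14, with 0 UMIs in negative cells. Kif5b lies near the solid line, at 132 and 128 CPM.

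The other libraries gave nearly the same set. At 24 h 13 of 26 kinesins followed mitosis (4.09% of all genes) and in P14 also 13 of 26 (5.29%), in both cases the same 12 and Kif24. At 96 h 11 of 23 did (3.24%), since Kif14 had only 9 UMIs in both sets together and was not counted. Kif24, which restrains the growth of cilia from centrioles, differed between libraries. It had 14 UMIs in positive and 4 in negative cells at 24 h, a CPM ratio of 8.01 (2.52 to 33.4). At 48 h it had 22 and 4 UMIs, a ratio of 3.45 (1.17 to 13.8). P14 had 15 and 4, a ratio of 24.3 (7.76 to 101), and at 96 h 0 UMIs lay in positive and 4 in negative cells, too few to count. The control had 4 positive hepatocytes and gave no contrast.

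Markers of other cell types also differed between positive and negative hepatocytes, most in P14. There the B cell markers summed to 35.4 CPM in positive and 3.43 CPM in negative hepatocytes, and the erythroid markers to 799 and 42.97 CPM, with all 7 of each list detected. The monocyte or macrophage markers of P14 stood at 20.3 against 3.61 CPM and its endothelial markers at 18.1 against 10.2 CPM. Other lists were lower in positive cells of P14, such as the cholangiocyte markers at 14.6 against 23.9 CPM. At 48 h the endothelial markers stood at 30.3 against 14.4 CPM, the T or NK markers at 25.9 against 17.4 CPM and the erythroid markers at 867 against 689 CPM, and the neutrophil markers were lower in positive cells, 181 against 204 CPM. At 24 h the B cell markers stood at 5.43 against 3.07 CPM and the T or NK markers at 7.67 against 5.17 CPM. Lower in positive cells at 24 h were the endothelial (13.7 against 24.02 CPM), neutrophil (79.2 against 111 CPM) and cholangiocyte markers (54.3 against 98.9 CPM). Of the 5 cholangiocyte genes only 2 were detected in hepatocytes at 24 h, with Krt19, Krt7 and Epcam at 0. At 96 h the erythroid markers stood at 444 against 253 CPM, and the cholangiocyte (61.5 against 207 CPM), T or NK (5.74 against 9.32 CPM) and mesenchymal markers (4.10 against 12.4 CPM) were lower in positive cells. Detected at 96 h were 3 of the 5 cholangiocyte and 4 of the 6 mesenchymal genes, without Krt19, Epcam, Col1a1 and Col3a1. The hepatocyte markers were lower in positive cells of all 4 libraries, from 46973 against 50701 CPM at 48 h to 75170 against 100888 CPM at 96 h. A hepatocyte was rich in markers of other cells when T or NK, B and monocyte or macrophage markers made up at least 0.05% of its UMIs or erythroid markers at least 0.2%, limits chosen after seeing the data. Among positive cells there were 4 of 227 in P14, with 87 of the 3096 mitotic kinesin UMIs of positive cells, and 11 of 273 at 48 h, with 73 of 3601. At 24 h they were 3 of 152 and at 96 h 1 of 56. Without hepatocytes rich in markers of other cells, an alternative chosen after seeing the data, the number of kinesins that followed mitosis was the same in all 4 libraries. By a wider count, at least 1 UMI of each of at least 2 different immune marker genes was held by 143 of 227 positive cells in P14 and by 108 of 152, 267 of 273 and 26 of 56 at 24, 48 and 96 h. Among all hepatocytes, positive or not, it was 1172 of 2106 in P14 and 842 of 1170, 706 of 719 and 287 of 771 at 24, 48 and 96 h. Without such cells 10 and 7 kinesins followed mitosis in the libraries of 24 and 96 h and 12 in that of P14, while the 48 h library kept 6 positive cells, too few for the contrast. Positive cells left were 44 and 30 at 24 and 96 h and 84 in P14. How many kinesins had enough UMIs among them is not given here, so the lower counts are not read further.

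Summed over the 12 mitotic kinesins, hepatocytes held 6.16 CPM in the control (82 UMIs), 73.2, 188 and 40.5 CPM at 24, 48 and 96 h, and 57.6 CPM in P14. The 48 h library was highest and the control lowest, and no interval overlapped another. Relative to the control the sum was 9.35-fold (7.51 to 11.8) in P14 and 11.9-fold (9.51 to 15.03), 30.6-fold (24.6 to 38.6) and 6.57-fold (5.20 to 8.40) at 24, 48 and 96 h. These kinesins made up 1.21% of all kinesin UMIs in the control and 31.9% at 48 h. The share of mitosis-positive hepatocytes was 0.432% in the control, 12.99, 37.97 and 7.26% at 24, 48 and 96 h, and 10.8% in P14. Among hepatocytes of 10 to 20% mitochondrial UMIs the sums were 22.2-fold, 61.4-fold and 5.35-fold at 24, 48 and 96 h and 18.3-fold in P14, with 87 control hepatocytes left, 0 of them positive, and 53 at 96 h, 2 of them positive. Without cells holding at least 2 immune marker genes they were 10.1-fold, 19.9-fold and 5.28-fold at 24, 48 and 96 h and 7.02-fold in P14, with 13 hepatocytes left at 48 h.

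A kinesin was called higher or lower in a library when log2((CPM + 1)/(CPM + 1)) against the control reached 1 or -1 and its mean CPM over the 5 libraries was at least 1. Of the 43 kinesins 25 reached that mean. Of these, 11, all mitotic, were under 1 CPM in the control and passed only through the other libraries, so the filter fixed their direction in part and the counts are a description. Higher were 12 kinesins at 24 h (background 8.4% of 10959 genes), 12 at 48 h (8.39%), 9 kinesins at 96 h (4.8%) and 10 in P14 (8.27%). Lower were 2 at 24 h (6.82%), 2 at 48 h (6.93%), 0 kinesins at 96 h (1.89%) and 1 in P14 (12.8%). The counts rest on the pseudocount and the filter. With a pseudocount of 5 CPM, 6, 10 and 2 were higher at 24, 48 and 96 h and 3 in P14, and with a mean of at least 5 CPM 7, 6, 5 and 6. At 96 h they were 3 at 10 to 20% mitochondrial UMIs, where 53 hepatocytes of that library were left, and 5 without cells holding at least 2 immune marker genes. The shares of all genes called under these settings are not given here. Every kinesin called higher was mitotic, except Kif5b at 24 h. The median log2 ratio of the mitotic kinesins was 2.21, 3.26 and 1.27 at 24, 48 and 96 h and 1.87 in P14, where the medians of all genes were 0, -0.05, 0.05 and -0.22.

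Among the motors of the spindle poles, Kif11 slides antiparallel microtubules and so drives the poles apart. Its level was 0.375 CPM in the control (5 UMIs), 14.9, 32.4 and 6.399 CPM at 24, 48 and 96 h, and 9.94 CPM in P14. The ratio to the control was 86.2 (36.7 to 266) at 48 h, on 5 control UMIs of which free RNA was expected to supply 25.004%. Kif15, which helps Kif11 to hold the poles apart, had 0 UMIs in the control, 5.38, 6.82 and 1.56 CPM at 24, 48 and 96 h, and 3.07 CPM in P14. Against a floor of 3 counts in the control it was at least 23.9-fold higher at 24 h and at least 30.3-fold higher at 48 h. The 24 and 48 h levels of Kif15 did not differ beyond counting error, with a ratio of 1.27 (0.977 to 1.65). Kifc1 walks the opposite way along microtubules and bundles them at the poles. It had 0 UMIs in the control, 2.61, 8.83 and 1.64 CPM at 24, 48 and 96 h, and 2.52 CPM in P14, at least 39.2-fold higher at 48 h than the control floor. The split of molecules between Kifc1 and its copy Kifc5b is uncertain.

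Other motors act on chromosomes and microtubule ends. Kif2c takes microtubules apart at centromeres and so corrects wrong attachments. Its level was 0.150 CPM in the control (2 UMIs), 5.38, 17.4 and 2.46 CPM at 24, 48 and 96 h, and 3.38 CPM in P14, a ratio to the control of 116 (31.9 to 962) at 48 h. Kif18a, which damps the swings of chromosomes on the metaphase plate, was at 0.676 CPM in the control (9 UMIs), 4.05, 5.38 and 2.23 CPM at 24, 48 and 96 h, and 2.03 CPM in P14. Its 24 and 48 h levels did not differ beyond counting error, with a ratio of 1.33 (0.987 to 1.79). Kif18b, which shortens astral microtubules, was at 0.225 CPM in the control (3 UMIs), 5.12, 9.94 and 1.79 CPM at 24, 48 and 96 h, and 1.98 CPM in P14.

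Kif22 and Kif4 bind chromosome arms and push them away from the poles. Kif22 was at 1.35 CPM in the control (18 UMIs), 6.61, 13.7 and 3.05 CPM at 24, 48 and 96 h, and 7.12 CPM in P14, and its ratio to the control was 10.2 (6.31 to 17.4) at 48 h. Kif4 was at 0.526 CPM in the control (7 UMIs), 9.53, 21.6 and 4.54 CPM at 24, 48 and 96 h, and 5.06 CPM in P14, a ratio of 41.1 (19.8 to 103) at 48 h. Like Kif11 and Kif2c, both had their lowest level in the control and their highest at 48 h.

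The cytokinesis motors work on the central spindle and the midbody. Kif20a brings the Aurora B complex to the central spindle, and its level was 0.676 CPM in the control (9 UMIs), 6.20, 34.2 and 11.2 CPM at 24, 48 and 96 h, and 8.87 CPM in P14. At 96 h it was 1.80-fold (1.41 to 2.31) its 24 h level, the only mitotic kinesin of the 12 whose interval lay above equality in this pair, as did that of 33.6% of the 10959 genes. Of the other 11, 9 were lower at 96 h, against 27.4% of all genes, and the intervals of Kif23 and Kifc1 spanned equality. Kif23, which forms the centralspindlin complex with Racgap1, was at 0.300 CPM in the control (4 UMIs), 2.66, 11.2 and 1.79 CPM at 24, 48 and 96 h, and 3.50 CPM in P14. Its 48 h level was 4.20-fold (3.096 to 5.78) that at 24 h. Kif20b, which acts late in cytokinesis, was at 0.976 CPM in the control (13 UMIs), 9.02, 22.5 and 3.13 CPM at 24, 48 and 96 h, and 8.73 CPM in P14. All 12 mitotic kinesins were lower at 96 than at 48 h beyond counting error, as were 22.2% of all genes, and 10 of the 12 were higher at 48 than at 24 h, as were 21.9%.

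Kif14, which brings citron kinase to the midbody, stood apart in the control. Its level was 0.901 CPM in the control (12 UMIs), 1.74, 4.46 and 0.744 CPM at 24, 48 and 96 h, and 1.35 CPM in P14, and it was called higher only at 48 h. The 12 control UMIs lay in 3 hepatocytes, and 9 of them in a single cell with 0 mitosis markers, 0 replication genes and 0 UMIs of the other mitotic kinesins. Without that cell, an alternative chosen after its values were seen, 3 control UMIs of Kif14 were left. The ratio of Kif14 to the control was then 5.97 (1.98 to 29.5) in P14. It was 7.72 (2.43 to 39.3), 19.8 (6.57 to 97.7) and 3.30 (0.849 to 18.7) at 24, 48 and 96 h, the last spanning equality. Kif14 would then also be called at 24 h.

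**Figure D2:**
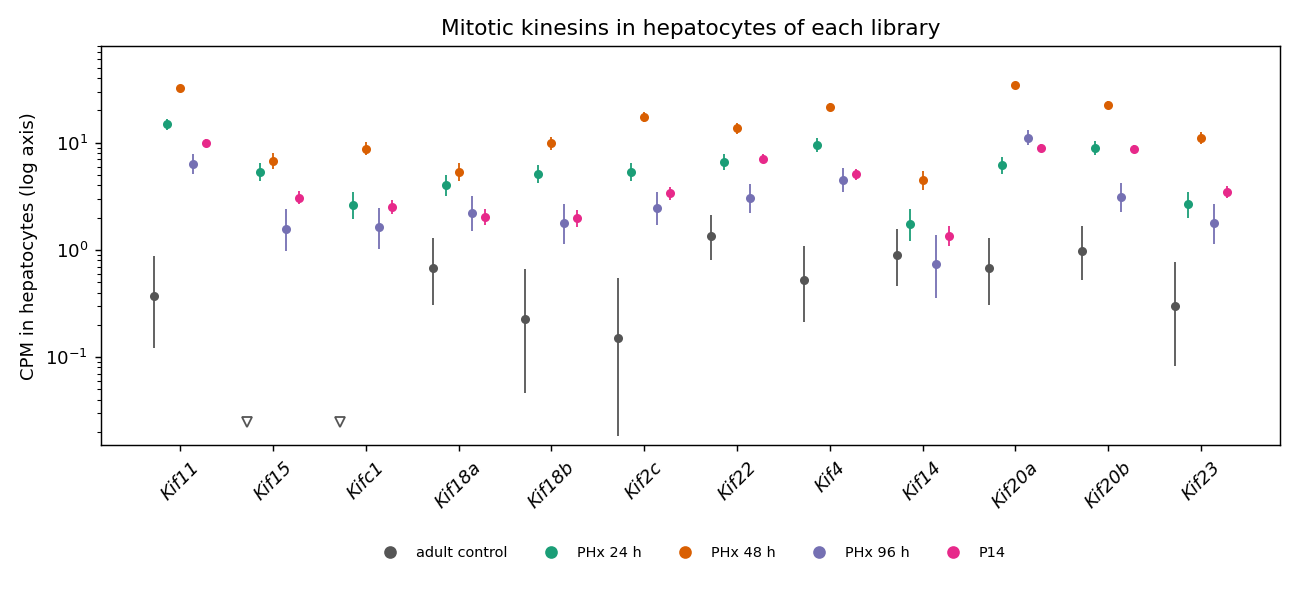
CPM of the 12 mitotic kinesins (log axis) in hepatocytes of each library, as points with 95% Poisson intervals. Open triangles mark 0 UMIs in the control (Kif15 and Kifc1). The 48 h points are the highest for all 12 genes, and the control points the lowest for all but Kif14, whose 96 h point lies lower.

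Mitosis-positive hepatocytes, 37.97% of those at 48 h, held 91.7% of the mitotic kinesin UMIs there, against 68.5% at 24 h, 77.02% at 96 h and 83.3% in P14. In the control the 4 positive cells held 26 of 82 UMIs. Mitosis-negative hepatocytes held 3.86 CPM (2.84 to 5.11) in the control, 6.09 CPM (5.38 to 6.86) in P14 and 5.73 CPM (4.11 to 7.77), 9.41 CPM (7.05 to 12.3) and 3.71 CPM (2.55 to 5.21) at 24, 48 and 96 h. The intervals of 48 h and P14 lay above that of the control. The mitosis markers themselves summed to 53.5 CPM in the negative cells of 48 h, against 17.3, 22.4 and 24.2 CPM in those of 24 h, 96 h and P14, and their part in this difference was not tested.

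Hepatocytes with at least 3 replication genes and 0 mitosis markers lay between. They held 31.6 CPM (25.2 to 39.03) at 24 h (176 cells) and 31.7 CPM (21.7 to 44.8) at 48 h (38 cells). Cells positive for mitosis with at least 3 replication genes held 267 CPM (247 to 288) at 24 h and 358 CPM (337 to 380.3) at 48 h, and those with at most 1 replication gene 432 CPM (369.8 to 503) and 432 CPM (413 to 453). At both times the mitosis-only cells held more, though these were only 17 cells at 24 h, against 124 at 48 h. In P14 the order was the other way, with 501 CPM (474 to 528) in cells positive for both and 419 CPM (395 to 443) in cells positive for mitosis only. At 96 h it was as in P14, with 402 CPM (339 to 473) in 18 cells and 269 CPM (230.2 to 313) in 28 cells.

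**Figure D3:**
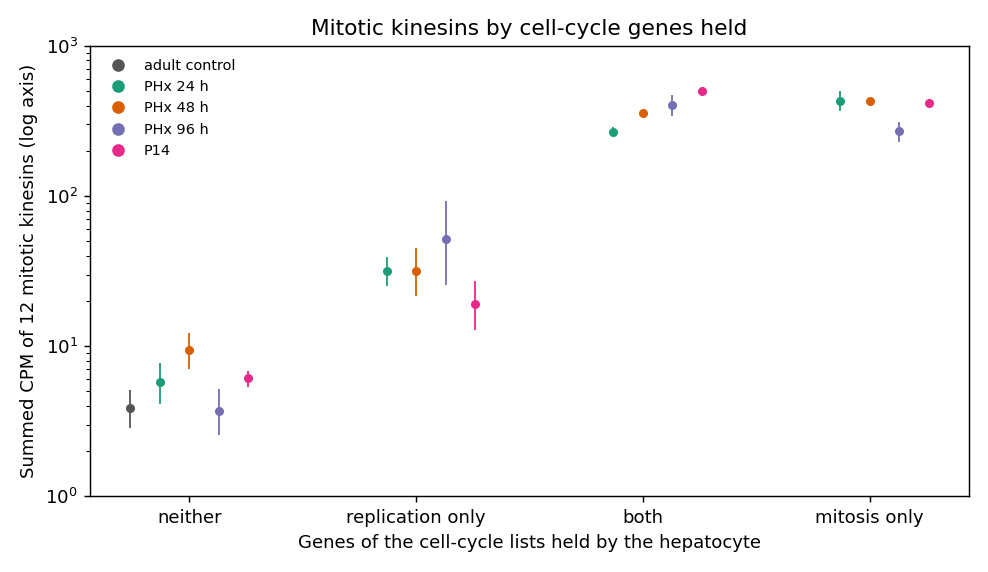
Summed CPM of the 12 mitotic kinesins (log axis) in hepatocytes that held neither cell-cycle list, replication genes only, both lists or mitosis markers only, with 95% Poisson intervals. The control has a point only for neither, as its other sets held at most 3 cells. Cells with replication genes only lie between 18.98 and 51.4 CPM, and the sets with mitosis markers at 267 CPM or more.

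Within mitosis-positive hepatocytes the mix of mitotic kinesins differed between libraries. Kif11 was at 69.02 CPM at 24 h and 69.8 CPM at 48 h and did not differ beyond counting error, with a ratio of 0.989 (0.843 to 1.16). Kif15 was at 22.05, 13.4 and 9.02 CPM at 24, 48 and 96 h, and its 24 h level was 1.65-fold (1.21 to 2.23) that at 48 h. Kif20a went the other way, with 28.4, 71.9 and 90.2 CPM. Its 96 h level was 3.17-fold (2.38 to 4.24) that at 24 h. It made up 9.10% of the mitotic kinesin UMIs of positive cells at 24 h, 17.9% at 48 h and 26.3% at 96 h. Kif2c, Kif20b, Kif22, Kif23 and Kifc1 were also lower at 24 than at 48 h beyond counting error, from 0.543-fold (Kifc1) to 0.757-fold (Kif22). For Kif4, Kif14, Kif18a and Kif18b the interval spanned equality. The share of all genes that differed between the positive cells of a pair of libraries was not counted. These differences are thus a description without a background.

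P14 exceeded 48 h most in Kif22, at 53.1 against 27.4 CPM in positive cells, 1.93-fold (1.64 to 2.28). Kif15 was 1.88-fold (1.48 to 2.40) its 48 h level and Kif20b 1.44-fold (1.26 to 1.65). Kif18a was 1.39-fold (1.05 to 1.84) and Kif11 1.15-fold (1.02 to 1.29). Lower in P14 were Kif2c, 0.725-fold (0.605 to 0.867), and Kif18b, 0.779-fold (0.611 to 0.989). The intervals of Kif4, Kif14, Kif20a, Kif23 and Kifc1 spanned equality. For this pair too the share of all genes that differed was not counted. Without the cells rich in markers of other cell types, P14 positive cells held 53.98 CPM of Kif22 and 23.8 CPM of Kif15.

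**Figure D4:**
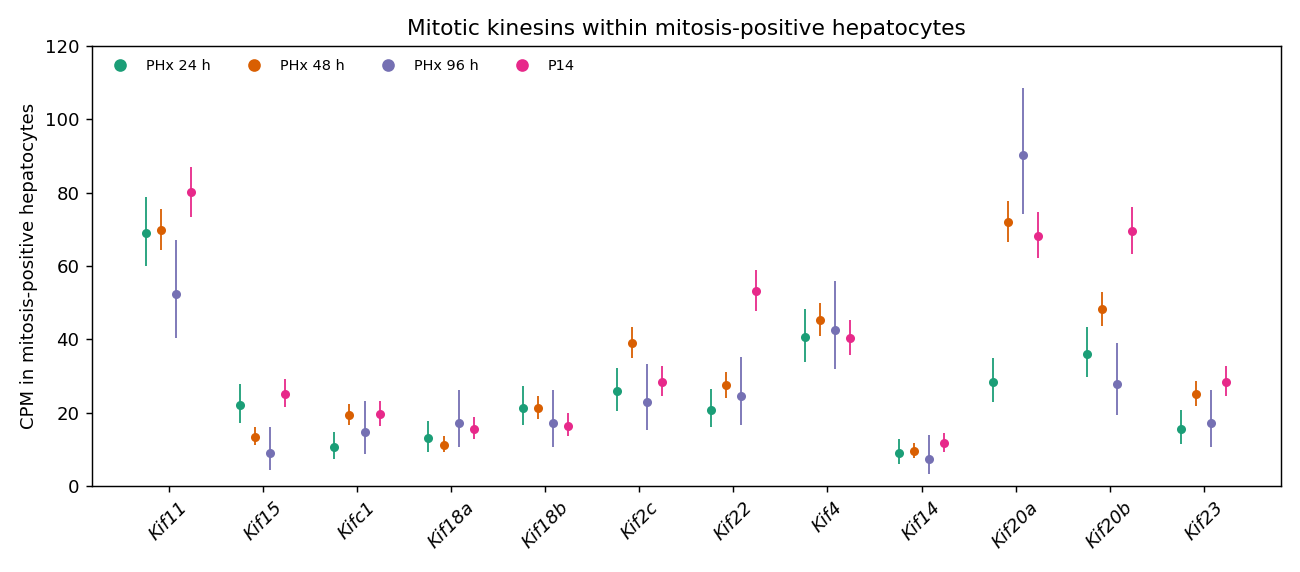
CPM of each mitotic kinesin within the mitosis-positive hepatocytes of the 24 h (152 cells), 48 h (273), 96 h (56) and P14 (227) libraries, with 95% Poisson intervals. Kif20a is lowest at 24 h and highest at 96 h, Kif15 is higher at 24 than at 48 h, and Kif22 and Kif20b are highest in P14.

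The libraries also differed in how many positive cells held at least 3 replication genes, 123 of 152 at 24 h and 93 of 273 at 48 h. The mitosis-only cells were 17 at 24 h and 28 at 96 h, so the ratios of these times rest on few cells. Kif20a was higher in mitosis-only cells than in cells positive for both lists, 2.26-fold (1.26 to 3.89) at 24 h, 1.82-fold (1.495 to 2.23) at 48 h and 3.63-fold (1.91 to 7.61) at 96 h. In P14 its ratio of 1.12 (0.907 to 1.38) spanned equality. Kif23 was higher in mitosis-only cells at 24 h, 2.97-fold (1.36 to 6.13), and at 48 h, 1.73-fold (1.24 to 2.44), and its ratios at 96 h and in P14 spanned equality. Kif2c was also higher in mitosis-only cells, 2.15-fold at 24 h and 1.52-fold at 48 h, with both intervals above equality. At 96 h and in P14 the intervals of Kif2c spanned equality. Kif15 was lower in mitosis-only cells in P14, 0.461-fold (0.321 to 0.654), and at 96 h, 0.163-fold (0.0165 to 0.857), the latter on 2 and 7 UMIs. Its ratios of 1.07 (0.464 to 2.19) at 24 h and 0.810 (0.535 to 1.23) at 48 h spanned equality. The Kif11 ratio was 0.699 (0.581 to 0.841) in P14 and 1.49 (1.01 to 2.14), 0.9504 (0.792 to 1.142) and 0.286 (0.143 to 0.548) at 24, 48 and 96 h, so it lay above 1 at 24 h and below 1 at 96 h and in P14. Kif18a (0.286-fold), Kif18b (0.176-fold) and Kif20b (0.395-fold) were lower in mitosis-only cells at 96 h, and Kif4 (0.710-fold) in P14. For Kif14, Kif22 and Kifc1 the interval spanned equality in every library. The share of all genes that differed in this contrast was not counted.

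Kinesins expressed at rest were those of at least 5 CPM in the control. There were 11: Kif1b, Kif1bp, Kif1c, Kif2a, Kif3b, Kif5b, Kif13a, Kif13b, Kif16b, Kif21a and Kifc3. None of them followed mitosis in any library, and no mitotic kinesin reached 5 CPM in the control. Of the 15 kinesins listed as transport motors 14 were detected and 8 were expressed at rest. The share of all genes at 5 CPM or more in the control is not given here, so these counts are a description. The 11 summed to 497 CPM in the control, 512, 395 and 459 CPM at 24, 48 and 96 h, and 353 CPM in P14. Relative to the control this was 1.03-fold (0.999 to 1.06), 0.796-fold (0.770 to 0.822) and 0.923-fold (0.892 to 0.956) at 24, 48 and 96 h. In P14 it was 0.710-fold (0.691 to 0.730), a value that depends on the scaling. The median log2 ratio of all genes in P14 was -0.22 by CPM and 0.09 with TMM factors. The P14 ratio of the 11 under TMM factors is not given here. The sum hid opposite differences of single genes.

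Kif5b, the widely expressed heavy chain of conventional kinesin, carries mitochondria, lysosomes and vesicles. Its level was 85.9 CPM in the control, 209.7, 125 and 114 CPM at 24, 48 and 96 h, and 70.8 CPM in P14. The 24 h library stood above the others, 2.44-fold (2.29 to 2.61) the control, while 48 h was 1.45-fold (1.36 to 1.56) and 96 h 1.32-fold (1.23 to 1.43). At 24 h Kif5b was at 225 CPM in mitosis-positive and 203 CPM in negative hepatocytes, and negative cells alone were 2.41-fold (2.22 to 2.61) those of the control. After thinning, 55.7% (52.8 to 58.6%) of hepatocytes at 24 h had a Kif5b UMI against 26.1% (23.3 to 29.01%) in the control, and unthinned 91.4% against 67.1%. In the T or NK cell gate of these libraries the thinned shares were 46% (35.98 to 56.3%) and 52.8% (48.5 to 57.1%), with overlapping intervals. In the endothelial gate they were 78.1% (60.03 to 90.7%) of 32 and 58.3% (27.7 to 84.8%) of 12 cells deep enough to thin, also overlapping. The empty-droplet plateau held 147 CPM of Kif5b at 24 h and 117 CPM in the control, and was expected to supply 2.76% and 12.5% of the hepatocyte UMIs of Kif5b.

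Kif1b, a motor for mitochondria and vesicles, was lower early after surgery. Its level was 138 CPM in the control, 65.2, 63.3 and 117 CPM at 24, 48 and 96 h, and 84.5 CPM in P14. Relative to the control it was 0.472-fold (0.439 to 0.507) at 24 h, 0.458-fold (0.427 to 0.492) at 48 h and 0.850-fold (0.794 to 0.909) at 96 h, so the 96 h library lay between. Without cells holding at least 2 immune marker genes the 24 h ratio was 0.515, short of the call, and the 48 h ratio 0.317, with 13 hepatocytes left at 48 h. Its 96 h level was 1.85-fold (1.72 to 1.997) that at 48 h. The difference was also present in mitosis-negative hepatocytes, which held 64.7 CPM at 24 h and 64.5 CPM at 48 h against 138 CPM in the control. The thinned share of hepatocytes with a Kif1b UMI was 41.7% (38.5 to 44.98%) in the control, 22.6% (20.3 to 25.2%) at 24 h and 20.2% (17.3 to 23.3%) at 48 h, and unthinned 79.1%, 62.5% and 76.2%. In the T or NK gate the thinned share of Kif1b was 24.7% (21.1 to 28.6%) in the control, 14% (7.87 to 22.4%) at 24 h and 22.4% (18.1 to 27.2%) at 48 h. In the endothelial gate it was 50% (21.1 to 78.9%) of 12 control cells. At 24 h it was 21.9% (9.28 to 39.97%) of 32 and at 48 h 21.7% (7.46 to 43.7%) of 23 cells, with overlapping intervals.

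Kif1c, which carries vesicles and integrins, was lower in every other library than in the control. Its level was 93.1 CPM in the control, 59.6, 56.9 and 57.5 CPM at 24, 48 and 96 h, and 57.3 CPM in P14. The intervals of these 4 libraries overlapped, and all 4 lay between 0.611-fold and 0.641-fold of the control, short of the call. Under the alternatives the P14 ratio ran from 0.605 to 0.780 and the 48 h ratio from 0.347 to 0.649. Without cells holding at least 2 immune marker genes Kif1c was called lower at 48 h, at 31.96 against 92.2 CPM, with 13 hepatocytes left. Kif21a, which restrains microtubule growth at the cell cortex, was at 91.8 CPM in the control, 95.9, 71.8 and 79.8 CPM at 24, 48 and 96 h, and 70.6 CPM in P14. Kif13b, a motor of membrane cargo, was at 33.4 CPM in the control, 27.005, 25.2 and 31.3 CPM at 24, 48 and 96 h, and 25.5 CPM in P14. Neither was called in any library.

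Kif2a takes microtubules apart in resting and dividing cells. Its level was 8.41 CPM in the control, 16.7, 13.3 and 11.8 CPM at 24, 48 and 96 h, and 9.57 CPM in P14, and at 24 h it was 1.98-fold (1.59 to 2.48) the control, just short of the call. At 10 to 20% mitochondrial UMIs the ratio was 3.40. In negative cells alone the 24 h level of Kif2a was 1.54-fold (1.15 to 2.06) the control, and positive cells at 24 h held 1.69-fold (1.22 to 2.34) the level of negative ones.

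The other kinesins expressed at rest were Kifc3, Kif3b, Kif13a, Kif16b and Kif1bp. Kifc3, a motor of epithelial junctions and apical transport, was at 9.84 CPM in the control, 8.40, 9.50 and 12.2 CPM at 24, 48 and 96 h, and 4.34 CPM in P14. In P14 it was 0.441-fold (0.357 to 0.547) the control, the only lower call there, and the call was lost with TMM factors (0.559-fold). Kif3b, a subunit of the motor of cilia, was at 8.56 CPM in the control, 8.35, 8.21 and 9.82 CPM at 24, 48 and 96 h, and 5.85 CPM in P14. Kif13a and Kif16b move endosomes. Kif13a was at 9.16 CPM in the control, 6.61, 7.06 and 6.399 CPM at 24, 48 and 96 h, and 7.28 CPM in P14, and Kif16b at 7.66 CPM in the control, 6.82, 7.58 and 8.78 CPM at 24, 48 and 96 h, and 10.5 CPM in P14. Kif16b shares its locus with Kif16bos, which had 1 UMI in all. The kinesin-binding protein Kif1bp was at 10.8 CPM in the control, 7.94, 7.54 and 9.90 CPM at 24, 48 and 96 h, and 6.61 CPM in P14. Kif3b, Kif13a, Kif16b and Kif1bp were called in no library.

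**Figure D5:**
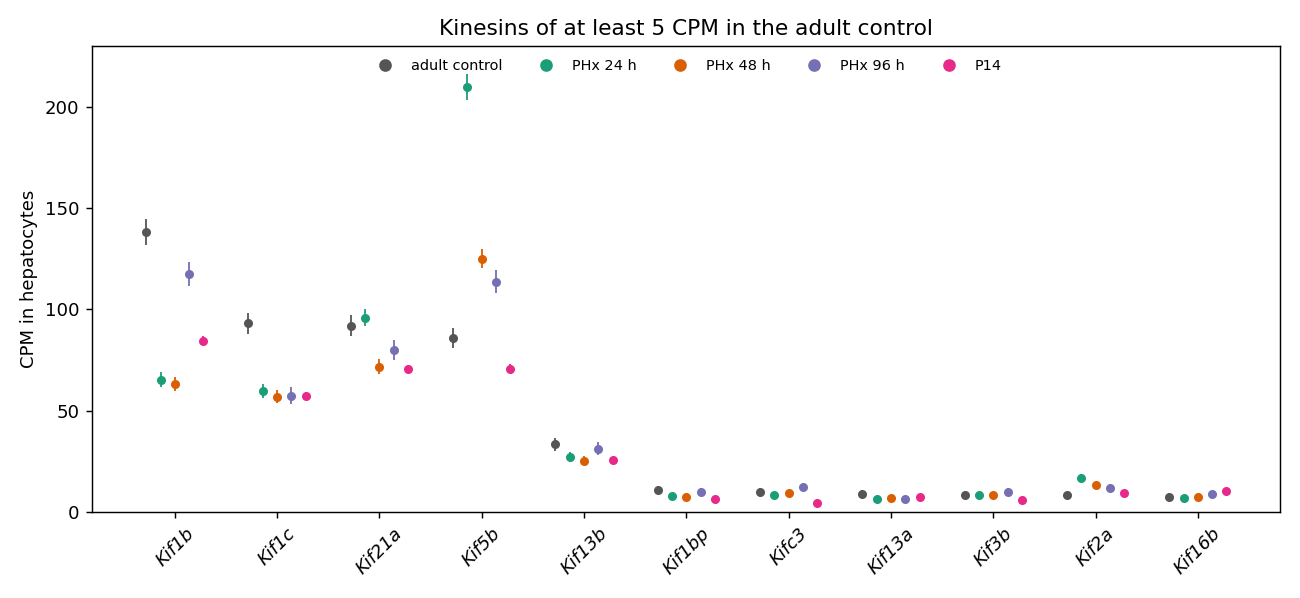
CPM (linear axis) of the 11 kinesins of at least 5 CPM in the control, in hepatocytes of each library, with 95% Poisson intervals. The 24 h point of Kif5b lies at 209.7 CPM, above its other libraries. The 24 and 48 h points of Kif1b lie at 65.2 and 63.3 CPM, below its control point of 138 CPM.

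The remaining 15 detected kinesins were neither expressed at rest nor followed mitosis at 48 h. Kif3a, the partner of Kif3b, was at 1.58 CPM in the control, 1.95, 2.30 and 2.46 CPM at 24, 48 and 96 h, and 3.17 CPM in P14. Kifc2, best known from neurons, was at 2.18 CPM in the control (29 UMIs), 0.307, 0.432 and 0.893 CPM at 24, 48 and 96 h, and 2.20 CPM in P14. Relative to the control Kifc2 was 0.141-fold (0.0479 to 0.346) at 24 h (6 UMIs) and 0.198-fold (0.0826 to 0.430) at 48 h (9 UMIs), the second lower call at these times beside Kif1b. Both calls of Kifc2 were lost with a pseudocount of 5 CPM, a mean of at least 5 CPM, CPM of all UMIs and at 10 to 20% mitochondrial UMIs, whereas those of Kif1b were kept. Without cells holding at least 2 immune marker genes neither was called at 24 h, and Kifc2 was not at 48 h. The 24 h ratio of Kifc2 itself lay between 0 and 0.246 under the scaling and cell limit alternatives. The other 13 had a mean under 1 CPM. Kif24 had 1 UMI in the control, 32, 35 and 5 at 24, 48 and 96 h and 24 in P14, and its ratio to the control at 48 h was 22.4 (3.76 to 909). Kif26b had 19 and 21 UMIs at 24 and 48 h and 5 in each other library. Kif12 had 7 UMIs, all in P14. Kif9 had 30 UMIs over the 5 libraries and Kif21b 25. Kif3c, Kif5a, Kif5c, Kif16bos, Kif17, Kif19a, Kif26a and Kif27 had from 1 to 9.

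Partners of the kinesins were counted from lists of other genes of the same machinery. Of 11 spindle partners 9, 10 and 8 were called higher at 24, 48 and 96 h and 9 in P14, against a background of 8.4, 8.39, 4.8 and 8.27% of all genes. All 11 passed the filter, but Tpx2, Cenpe, Racgap1 and Aurkb were under 1 CPM in the control and passed only through the other libraries, so the count is a description. Their median log2 ratio at 48 h was 4.48, that of all genes -0.05. Tpx2, a spindle assembly factor, was at 0.601 CPM in the control and 53.4 CPM at 48 h. Prc1, which binds Kif4 on the central spindle, was at 1.13 and 65.4 CPM, and Birc5, a member of the Aurora B complex, at 3.53 and 116 CPM. Numa1, which anchors dynein at the poles, was the member called lower at 24 h, at 10.7 against 22.8 CPM. Of 16 light chains and adaptors of transport kinesins 14 had a mean of at least 1 CPM, and none was called after PHx, where 6.82, 6.93 and 1.89% of all genes were called lower at 24, 48 and 96 h and the shares called higher are those given for the spindle partners. Klc4, a light chain of conventional kinesin, was at 41.4 CPM in the control and 22.1 CPM at 48 h, and Trak1, which links this motor to mitochondria, at 38.1 and 23.3 CPM. In P14 3 of the 14, Klc4, Arl8a and Map7d1, were called lower, against 12.8% of all genes, with a median log2 ratio of -0.75 over the 14 against -0.22 for all genes.

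Dynein walks the other way along the same tracks. Of 21 listed dynein and dynactin genes 19 had a mean of at least 1 CPM, and Dynll1 was the only one called at 24, 48 or 96 h. This light chain, which other complexes share, was at 74.3 CPM in the control, 363, 376 and 161 CPM at 24, 48 and 96 h, and 99.8 CPM in P14. It was called higher at all 3 times, as were 8.4, 8.39 and 4.8% of all genes. In P14 4 of the 19, Actr1a, Bicd2, Dynll2 and Dynlt3, were called lower, against 12.8% of all genes. In the 48 h contrast of positive with negative cells the dynein list had a median ratio of 1.40 and the spindle partners 46.1. The 12 mitotic kinesins had 49.9 and the 9 counted transport kinesins 1.11. The median of all 26 counted kinesins, 3.19, falls between these groups and describes neither.

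By cells, a UMI of any mitotic kinesin was present after thinning in 1.51% (0.830 to 2.53%) of hepatocytes in the control, 11.7% (10.4 to 13.2%) in P14 and 13.9% (11.997 to 16.05%), 33.4% (29.9 to 36.96%) and 8.56% (6.68 to 10.8%) at 24, 48 and 96 h. Unthinned the shares were 4.86% in the control, 28.3% in P14, and 31.9%, 57.02% and 16.99% after PHx. Mitosis-negative hepatocytes of the same libraries, which should hold few, stood at 1.05% in the control, 2.92% in P14, and 1.75%, 2.70% and 2.22% after PHx, after thinning. A thinned positive cell held a median of 1 of the 12 kinesins and at most 5 in the libraries of 24, 48 and 96 h and P14.

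Mitotic kinesin UMIs were also counted in gates of other liver cells. These were barcodes of at least 2000 UMIs with at least 3 markers of 1 cell type and under 1% of UMIs from Alb, Apoa1 and Ttr. In the B cell gate the summed level was 1181 CPM in P14 (74 cells) and 70.3 CPM in the control (150 cells). In the erythroid gate it was 422 CPM in P14 (25 cells), against 0 UMIs in 301 control cells. In the T or NK gate it was 85.4 CPM in the control, 176, 121 and 233 CPM at 24, 48 and 96 h, and 523 CPM in P14. The 48 h library, highest in hepatocytes, was thus not highest there. In the endothelial gate it was 22.5, 229 and 339 CPM at 24, 48 and 96 h, from 77, 34 and 26 cells. Of these mitotic kinesin UMIs free RNA, estimated as for hepatocytes, was expected to supply at most 3.53% in the T or NK gate of any library and 0.0861% and 0.232% in the B cell and erythroid gates of P14. In the endothelial gate at 24 h it was expected to supply 29.7% of 8 UMIs, and that level lay under the 46.9 CPM of the empty droplets, so it is not read as expression. The empty droplets of 48 h held 102 CPM. Kif21b, a transport kinesin with at most 8 UMIs in the hepatocytes of any library, was at 50.6 to 62.2 CPM in the T or NK gate of the 5 libraries.

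Markers of other cells were also present in hepatocytes. The erythroid list, with 6 or 7 of 7 genes detected, ran from 124 CPM in P14 to 762 CPM at 48 h, and the T or NK list from 3.24 to 25.6 CPM, highest in the control. The neutrophil list ran from 10.96 CPM in the control to 189.5 CPM at 48 h. Krt19 was at 0 in all libraries but P14, and Col1a1 in all 5. Without the hepatocytes rich in T or NK, B, monocyte or macrophage or erythroid markers, the summed mitotic kinesins at 48 h were 30.8-fold the control. With these hepatocytes they were 30.6-fold. Neutrophil, endothelial, cholangiocyte and mesenchymal markers were not part of this limit, so the value does not bear on them.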

How the data were processed

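The deposited matrices hold raw UMI counts per gene and barcode, written by Cell Ranger per the file headers (software version 3.0.2), for all 6794880 listed barcodes of each library. Per the submitters' processing notes reads were demultiplexed with bcl2fastq 2.17.1.14 and the build was mm10, and Seurat 3.1 is named there too. From these counts hepatocytes were selected by the limits given above, and UMIs were summed per library or cell set and divided by the sum without mitochondrial genes to give CPM. Summed hepatocyte UMIs without mitochondrial genes ran from 13316829 in the control to 64576753 in P14. Levels carry exact Poisson intervals and ratios exact conditional binomial intervals, shares Clopper-Pearson intervals, and a count of 0 a floor of 3 counts. For shares and cell sets each cell was thinned once to 5000 UMIs. Free RNA was estimated from barcodes ranked 20001 to 60000 by UMIs. Doublets were kept, and removal of the top Scrublet scores at a rate that grew with the number of cells (at most 8%) was an alternative. By the rule for named genes, values per library are given for mitotic kinesins, kinesins expressed at rest and the members with the 5 largest ratios in each direction, and of the partner lists for the 3 genes with the largest log2 ratio (pseudocount 1 CPM) at 48 h in each direction. Other partner genes are named because they were called, and Kif24, Kif3a and Kif21b were added after their values were seen. Members and lists were chosen with earlier results of these data known. Calculations used Python 3.11.15, numpy 2.4.6, scipy 1.17.1, pandas 2.3.3 and scanpy 1.11.5, with edgeR 4.0.16 (TMM) and DESeq2 1.42.0 (size factors) only as scaling alternatives, and were tested on simulated data. Other alternatives were all UMIs in the denominator, a pseudocount of 5 CPM, a mean of at least 5 CPM, depth, mitochondrial and hepatocyte limits, removal of cells with immune marker genes, and subtraction of free RNA.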

Additional observations from a re-analysis of the deposited data

How the results depend on the processing

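Of 229 recomputed counts and sums over 19 settings 196 stayed close to the value given, meaning within 1.5 times for a count and within the interval for a summed ratio, and no sum changed direction. With a pseudocount of 5 CPM, 6, 2 and 3 kinesins were higher than the control at 24 h, 96 h and in P14. With a mean of at least 5 CPM, 7, 6, 5 and 6 were higher at 24 h, 48 h, 96 h and in P14, as fewer kinesins were counted. Lower calls were 1 at 24 h and 1 at 48 h under both of these settings, with CPM of all UMIs and at 10 to 20% mitochondrial UMIs, and the call lost was Kifc2 each time. The single lower call in P14 (Kifc3) fell to 0 with CPM of all UMIs, TMM factors, DESeq2 size factors, a pseudocount of 5 CPM and at 10 to 20% mitochondrial UMIs. TMM factors moved the P14 median of all genes by 0.30 on the log2 scale and the summed mitotic kinesins to 11.9-fold. At 10 to 20% mitochondrial UMIs, which left 87 control hepatocytes with 0 mitosis-positive ones and 53 hepatocytes at 96 h with 2, 3 kinesins were higher at 96 h, and the summed mitotic kinesins were 22.2-fold, 61.4-fold and 5.35-fold at 24, 48 and 96 h and 18.3-fold in P14. At 0 to 30% the 96 h sum was 5.09-fold, and with hepatocyte transcripts of at least 2% the 24 h sum was 8.56-fold. The cause of these shifts was not tested. Of 158 single-gene ratios 25 moved beyond their interval. Removal of cells holding at least 2 immune marker genes left 13 hepatocytes at 48 h and 30 positive cells at 96 h. In this setting 0 kinesins were lower at 24 h and 5 at 48 h, namely Kif1b, Kif1c, Kif3a, Kif3b and Kifc3. Of these, Kif3a, Kif3b and Kifc3 were at 0 CPM in the 13 hepatocytes of 48 h. At 96 h 5 kinesins were higher and 7 followed mitosis. The shares of all genes called in this setting are not given here, so its counts are not read further. The sums were 19.9-fold at 48 h and 7.02-fold in P14. No paired analysis was possible because each group has 1 library. Among the 12 mitotic kinesins depth limits Kif15, Kifc1, Kif2c, Kif18b, Kif23 and Kif11 most, with 0 to 5 UMIs in the control.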

Other observations

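Of the mitotic kinesin UMIs in the neutrophil gate Kif23 held 9 of 16 in P14, 8 of 9 in the control, 49 of 87 at 24 h, 64 of 109 at 48 h and 27 of 27 at 96 h. In the control and at 96 h the same cells (22 and 52) had 0 and 3 UMIs of the 18 mitosis markers, against 62 in the 29 cells of P14, 381 in the 153 of 24 h and 335 in the 166 of 48 h. Kif23 was at 74.9 CPM there in the control (32.4 to 148) and 120.01 CPM at 96 h (79.1 to 175). In hepatocytes of these libraries it was at 0.300 and 1.79 CPM. The motor Kif5a, known from neurons, had 46 UMIs in the plasmacytoid dendritic gate of the control and the 24, 48 and 96 h libraries, at 9.47 to 27.9 CPM, and at most 3 UMIs in the hepatocytes of any library. Free RNA was expected to supply at most 0.372% of the Kif23 UMIs of the neutrophil gate and at most 0.138% of the Kif5a UMIs of the dendritic gate in any of these libraries. Both were chosen after their values were seen.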
